A study of Drosophila melanogaster with 6 samples.

Results

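The 8 genes N, Dl, Ser, fng, neur, Su(H), mam and kuz, which encode the Notch receptor, its ligands and proteins that modify the signal, were compared between eye and antennal imaginal discs of the fruit fly Drosophila melanogaster. They were chosen by name, through their FlyBase gene identifiers, and all 8 were found among the 17753 gene identifiers of the deposited expression tables. Polyadenylated RNA was sequenced from 3 libraries of eye imaginal discs and 3 libraries of antennal imaginal discs. Every library came from 30 discs from larvae in the last larval stage, of the genotype yw;+;+, a stock mutant for yellow and white with no transgene named, so the tissue is the only labelled difference. Eye and antennal parts of each disc were cut apart by hand. The libraries are described as biological replicates, with no account of which larvae were pooled, so p-values measure the spread between these libraries.

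Notch is a transmembrane receptor that is activated by ligands on the neighbouring cell. Delta (Dl) and Serrate (Ser) are the ligands, and the ubiquitin ligase Neuralized (neur) starts the ligand endocytosis that pulls on the receptor. The pulled receptor is cut outside the membrane by the metalloprotease Kuzbanian (kuz) and then inside it by gamma-secretase. The freed intracellular domain joins the DNA-binding protein Suppressor of Hairless (Su(H)) and the coactivator Mastermind (mam) on target genes such as the Enhancer of split genes. The glycosyltransferase Fringe (fng) extends sugars on the receptor, which favours Dl over Ser as ligand. In the eye disc the pathway is known for growth at the dorsoventral midline, for spacing the R8 photoreceptor founders and for later cell fates in each ommatidium, and in the antennal disc for the borders between segments.

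The libraries held 17583649 to 29093995 estimated counts, and eye disc replicate 2 was the smallest, with 12.5% of its counts in its top 10 genes against 6.25% to 6.75% elsewhere. At these depths 3 counts were worth 0.1 to 0.192 CPM (counts relative to the TMM-scaled size of the library), which covers counting error only. All 8 genes passed the filter on low counts. Markers fitted the labels of the tissues: 6 of 6 eye field genes were higher in eye disc and 5 of 5 antennal field genes were higher in antennal disc. The summed level of the eye field genes was 1414 to 1606 CPM in eye disc against 162 to 216 in antennal disc. That of the antennal field genes was 462 to 466 and 1427 to 1520 CPM, so that neither set was absent from the other tissue. In eye disc hth made up most of the antennal field sum, at a mean of 361 CPM. There ct was at 67.6, Dll at 13.7, ss at 13.4 and disco at 7.97 CPM. A gene was called where the edgeR quasi-likelihood test gave a Benjamini-Hochberg adjusted p under 0.05 over 9901 tested genes. Eye disc was higher for 1449 of these and antennal disc for 1161. With limma on log2 of the deposited TPM plus 1, which moved the median fold change of all genes by -0.19, the counts were 858 and 344.

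Of the 8 genes, N, Dl and Ser were higher in antennal disc, neur and mam were higher in eye disc, and fng, Su(H) and kuz were not called. This was 5 of 8 called, where 26.4% of all tested genes were called. In the direction of eye disc it was 2 of 8 against a background of 14.6%, and in the direction of antennal disc 3 of 8 against 11.7%. The 8 genes were chosen with earlier results of these data known, so these shares give context and are not a test. Only neur differed by at least 2-fold among the called genes, where 10.9% of tested genes did. For the same 5 genes all libraries of 1 tissue lay above all of the other, and 45.6% of all tested genes showed this. By DESeq2 and with the replicate number as a block the calls were the same 5 genes (34.2% and 30.4% of tested genes called). By limma on TPM they were Ser and neur alone (12.1% and 12.6% with pseudocounts of 1 and 0.1). With a pseudocount of 1 the SE of the log2 fold change was 0.30 for N, Dl and mam, against 0.07, 0.06 and 0.09 by edgeR. With 1 library left out 3 to 5 of the 8 were called, against 24.9%, 24.1% and 21.6% of tested genes without eye disc replicates 1, 2 and 3 and 19.9%, 15% and 14.5% without antennal disc replicates 1, 2 and 3. The median log2 fold change of the 8 genes, taken here and below as eye disc over antennal disc, was -0.07, and that of all tested genes was below 0.005 in size. In bulk samples of this kind, fewer cells that express a gene and less RNA per cell cannot be told apart.

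**Figure D1:**
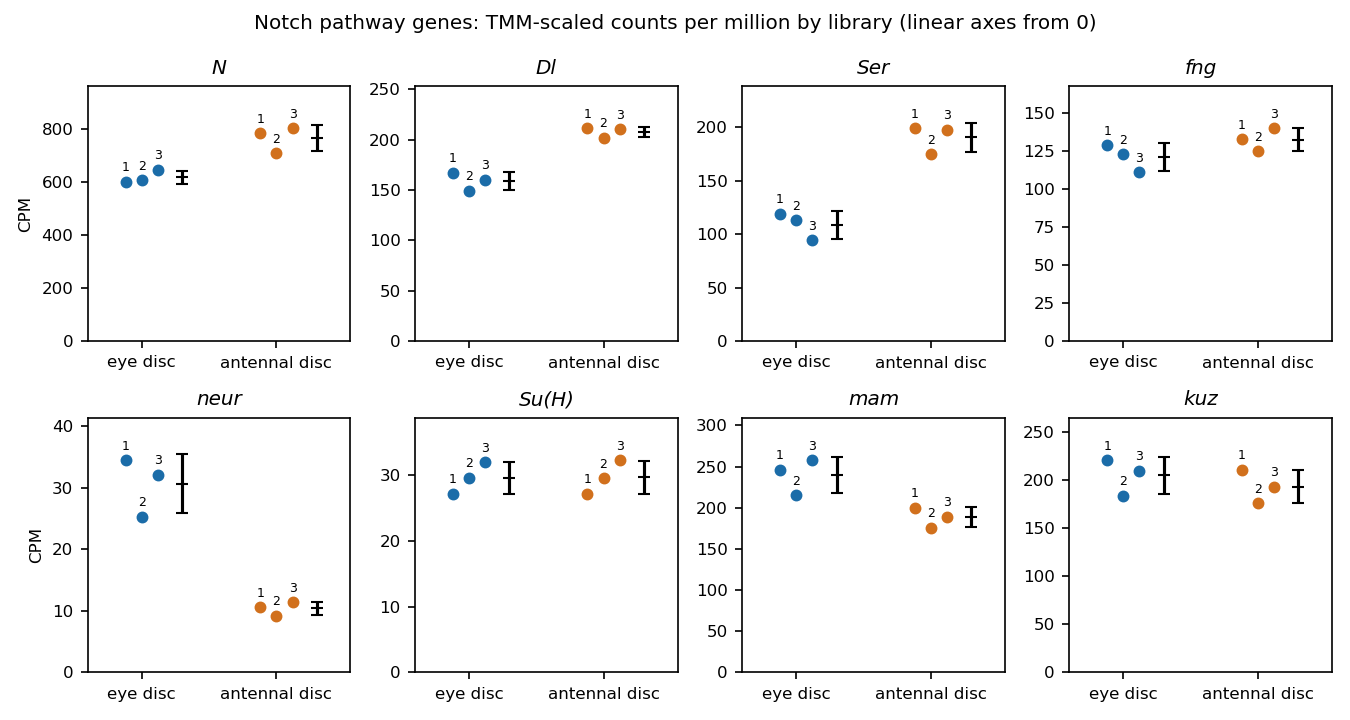
TMM-scaled CPM of each of the 8 genes on linear axes that start at 0, with 1 point per library numbered by replicate and a bar for the mean ± SD (n = 3). The points of the tissues are apart for N, Dl, Ser, neur and mam, with neur at 25.3 to 34.5 CPM in the eye against 9.23 to 11.4 in the antenna, and they overlap for fng, Su(H) and kuz.

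The receptor gene N (FBgn0004647, chromosome X, 3134870 to 3172221, plus strand, dm6) was at 601, 606 and 647 CPM in eye disc replicates 1, 2 and 3 and at 784, 709 and 802 CPM in antennal disc replicates 1, 2 and 3. All antennal disc libraries lay above all eye disc libraries, with the lowest antennal disc library, replicate 2, closest to the eye disc. The means were 618 ± 25.3 and 765 ± 49.3 CPM (SD, n = 3), a log2 fold change of -0.31 ± 0.07 (SE, edgeR quasi-likelihood test, adjusted p = 0.0186). With 1 library left out the log2 fold change was -0.37 to -0.28 and the adjusted p was 0.0241 to 0.0724. The call was lost where antennal disc replicate 1 (0.0512) or replicate 3 (0.0724) was left out. No other indexed gene overlaps the span of N.

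Both ligands were higher in antennal disc. Dl (FBgn0000463, named Delta in the annotation, 3R, 19302731 to 19326217, minus strand) was at 167, 149 and 160 CPM in the eye disc replicates and at 211, 202 and 210 CPM in the antennal disc replicates. The antennal disc libraries were close together, with an SD of 4.86 CPM, and the tissues did not overlap. The log2 fold change was -0.39 ± 0.06 (SE, edgeR quasi-likelihood test, adjusted p = 0.00465), and the call held in all 6 fits that left out 1 library. Ser (FBgn0004197, 3R, 27172090 to 27194267, minus strand) was at 119, 113 and 94.1 CPM in eye disc and at 199, 175 and 198 CPM in antennal disc. It had the largest difference toward antennal disc among the 8 genes, 1.75-fold between the means of 109 ± 12.9 and 191 ± 13.8 CPM. Its log2 fold change was -0.81 ± 0.10 (SE, edgeR quasi-likelihood test, adjusted p = 0.00232), and its call held in the 6 fits with 1 library left out, at -0.88 to -0.73. Neither Dl nor Ser shares its span with another indexed gene.

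The balance of the ligands was compared within each library, where the scaling of the library cancels. The ratio of Dl to Ser in CPM was 1.41, 1.32 and 1.71 in eye disc and 1.06, 1.16 and 1.06 in antennal disc. Every eye disc library had the higher ratio. The mean log2 ratio was 0.55 ± 0.19 in eye disc and 0.13 ± 0.07 in antennal disc (SD, n = 3), a difference of 0.43 (exact two-sided permutation test, p = 0.1, adjusted p = 0.15 over 3 ratios). With 3 libraries against 3 this test cannot give a p below 0.1.

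The ubiquitin ligase gene neur (FBgn0002932, 3R, 9020348 to 9039471, minus strand) had the largest difference of the 8 genes. It was at 34.5, 25.3 and 32.1 CPM in the eye disc replicates and at 10.6, 9.23 and 11.4 CPM in the antennal disc replicates. Each eye disc library was above each antennal disc library, and eye disc replicate 2 was the lowest of its tissue. The means of 30.6 ± 4.77 and 10.4 ± 1.10 CPM (SD, n = 3) differed 2.94-fold, a log2 fold change of 1.56 ± 0.14 (SE, edgeR quasi-likelihood test, adjusted p = 0.000631). The call held in all 6 fits with 1 library left out, at log2 fold changes of 1.46 to 1.68. Of the tested genes, 88.0% had a smaller absolute log2 fold change.

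An antisense RNA overlaps neur. The span of asRNA:CR31429 (3R, 9022057 to 9024018, plus strand) lies wholly inside that of neur and covers 40.4% of its exon bases. The antisense RNA was listed at 59.2, 48.9 and 53.4 CPM in eye disc and at 20.9, 19.2 and 20.7 CPM in antennal disc, above neur itself in every library. Its log2 fold change of 1.41 ± 0.09 (SE, edgeR quasi-likelihood test, adjusted p = 0.00015) had the direction of that of neur. The antisense counts were 1.72, 1.93 and 1.67 times those of neur in eye disc and 1.96, 2.08 and 1.82 times in antennal disc. The library kit keeps the strand, but the strand setting of the counting is not given in the sources used here, so reads of the genes cannot be told apart. Their sum was 84.5 ± 9.78 CPM in eye disc against 30.7 ± 2.00 in antennal disc, a log2 fold change of 1.46 ± 0.10 (SE, edgeR quasi-likelihood test, adjusted p = 0.000234). hyx, which overlaps neur by 712 bases at the other end, was at 88.8 ± 2.67 and 90.5 ± 2.87 CPM and was not called (log2 fold change -0.03, adjusted p = 0.714). Of the span of hyx 19.8% lies inside neur. With all counts of hyx in the sum as well, the log2 fold change was 0.52 (edgeR quasi-likelihood test, adjusted p = 0.00278). That sum includes hyx counts from outside neur, so it is not a value for neur alone.

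**Figure D2:**
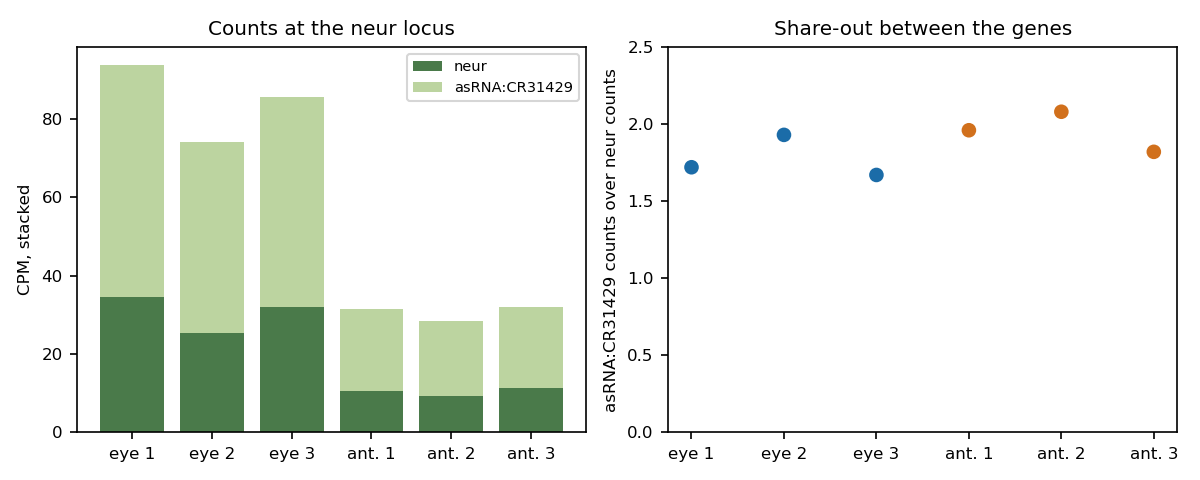
Left, CPM of neur and of asRNA:CR31429 stacked for each library, on an axis from 0. Right, estimated counts of the antisense RNA divided by those of neur in each library, which range from 1.67 in eye disc replicate 3 to 2.08 in antennal disc replicate 2. The stacks reach 74.2 to 93.7 CPM in eye disc but 28.4 to 32.1 in antennal disc.

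Markers of other cell types also differed between the tissues, not all in the direction of neur. Of 5 neuronal markers, 5 were higher in eye disc, as were 14.6% of all tested genes. Their summed level was 531 to 849 CPM against 77.8 to 89.4 CPM. The postmitotic neuron marker elav was at 199 ± 47.6 against 44.0 ± 2.92 CPM and the synaptic protein gene brp at 143 ± 40.5 against 6.46 ± 1.32 CPM, and 98.6% of the span of elav is covered by other genes. Eye disc replicate 2 was the lowest eye disc library for neur and for 38.1% of all tested genes. It was lowest for 4 of the 5 neuronal markers (all but Syt1) and 4 of the 5 glial markers. Among eye field markers it was lowest for 6 of 6, and among hemocyte markers for 3 of 5. For the 5 antennal field markers and the 5 muscle and myoblast markers, these counts were 1 and 0. Of 5 glial markers, 5 were higher in eye disc (summed level 274 to 331 against 92.3 to 103 CPM), and of 5 hemocyte markers 4 were (461 to 636 against 238 to 337 CPM). Of 5 muscle and myoblast markers, antennal disc was higher for 2 and 3 were not called (100 to 295 against 354 to 428 CPM). The share of all tested genes higher in antennal disc was 11.7%. By limma on TPM 0 of the 5 hemocyte markers were called, and 4 of the 5 muscle and myoblast markers toward antennal disc. No marker of these lists was at 0 in all libraries, and their part in the difference of neur was not tested.

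Mind bomb 1 (mib1) is the other ubiquitin ligase of Dl and Ser, and it was level between the tissues. It was at 127, 122 and 126 CPM in eye disc and at 129, 118 and 124 CPM in antennal disc, with overlapping ranges (log2 fold change 0.01, 95% interval -0.11 to 0.14, edgeR quasi-likelihood test, adjusted p = 0.887). The counts of neur were 0.273, 0.208 and 0.255 times those of mib1 in the eye disc libraries and 0.0822, 0.0780 and 0.0922 times in the antennal disc libraries. These ranges are far apart, with a difference in mean log2 ratio of 1.54 (exact two-sided permutation test, p = 0.1, adjusted p = 0.15 over 3 ratios, again the smallest p this design allows). Adding the antisense counts to neur gave a difference of 1.45.

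**Figure D3:**
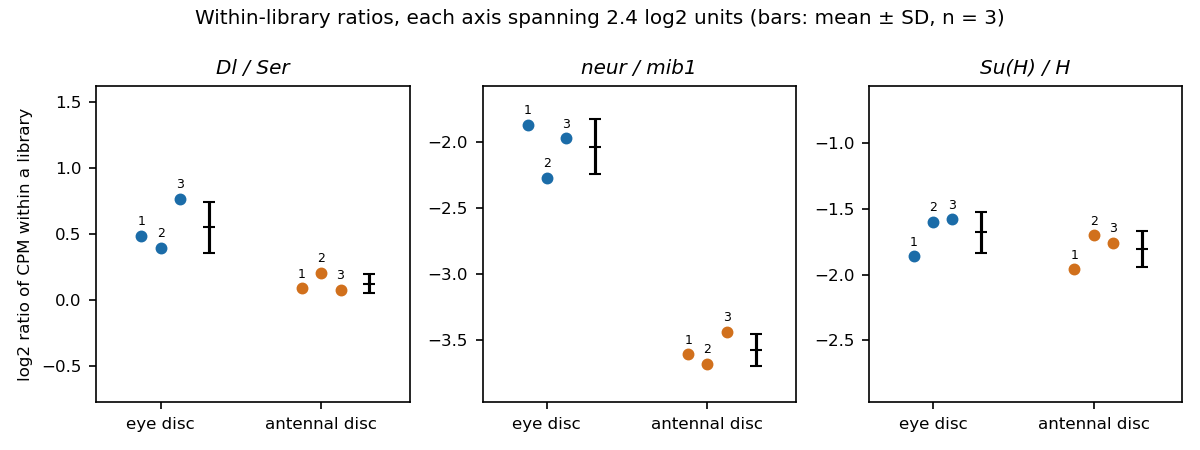
Log2 ratio of CPM within each library for Dl over Ser, neur over mib1 and Su(H) over H, with 1 point per library numbered by replicate and a bar for the mean ± SD (n = 3). All panels span the same number of log2 units, and the eye disc points lie above the antennal disc points in the panels for Dl over Ser and neur over mib1 but overlap with them for Su(H) over H.

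The glycosyltransferase gene fng (FBgn0011591, 3L, 20925891 to 20949512, minus strand) was not called. It was at 129, 123 and 111 CPM in eye disc and at 133, 125 and 140 CPM in antennal disc. The ranges of the tissues overlapped through eye disc replicate 1, and eye disc replicate 3 was lowest. The log2 fold change was -0.13 ± 0.08, with a 95% interval of -0.32 to 0.05 (edgeR quasi-likelihood test, adjusted p = 0.235), and a difference toward antennal disc of the size seen for N lay within the interval. The 1 gene nested in fng, CG10589, was listed at 0 counts in every library.

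The metalloprotease gene kuz (FBgn0259984, 2L, 13550139 to 13639411, plus strand) was at 221, 184 and 210 CPM in eye disc and at 211, 176 and 193 CPM in antennal disc. Replicate 2 was the lowest and replicate 1 the highest of each tissue, and the ranges overlapped. The log2 fold change was 0.09 ± 0.10, with a 95% interval of -0.14 to 0.32 (edgeR quasi-likelihood test, adjusted p = 0.545). kuz has the longest span of the 8 genes, 89273 bases, of which 7.95% are exonic, and the 4 genes that overlap it were listed at 0 counts in every library.

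Of the nuclear proteins, Su(H) did not differ detectably and mam was higher in eye disc. Su(H) (FBgn0004837, 2L, 15039488 to 15043334, plus strand) was at 27.2, 29.6 and 32.0 CPM in eye disc and at 27.2, 29.5 and 32.3 CPM in antennal disc. Libraries of equal replicate number were thus closer to each other than libraries of the same tissue were, and the ranges overlapped. The log2 fold change was -0.0041 ± 0.09, with a 95% interval of -0.23 to 0.22 (edgeR quasi-likelihood test, adjusted p = 0.979). The ratio of Su(H) to H, the gene of the corepressor Hairless that binds Su(H), was 0.275, 0.331 and 0.334 in eye disc and 0.258, 0.308 and 0.295 in antennal disc. These ranges overlapped, and the difference in mean log2 ratio was 0.13 (exact two-sided permutation test, p = 0.3, adjusted p = 0.3 over 3 ratios). Within libraries of equal replicate number the ratio was higher in eye disc in 3 of 3 pairs, by 0.09, 0.11 and 0.18 on the log2 scale. An exact two-sided sign-flip permutation test gave p = 0.25, the smallest that 3 pairs allow. The pairing was taken from the data and the test was added after they were seen. The ratios of Dl to Ser and of neur to mib1 gave 3 of 3 pairs and the same p in this test. H itself was at 94.7 ± 4.73 and 104 ± 7.10 CPM and was not called.

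The coactivator gene mam (FBgn0002643, 2R, 13991203 to 14060356, plus strand) was at 246, 215 and 258 CPM in eye disc and at 200, 176 and 189 CPM in antennal disc. The tissues did not overlap, with eye disc replicate 2 and antennal disc replicate 1 nearest to each other. The log2 fold change was 0.35 ± 0.09 (SE, edgeR quasi-likelihood test, adjusted p = 0.0294). The call held only without eye disc replicate 2 (log2 fold change 0.42, adjusted p = 0.012) and was lost without any other single library, at log2 fold changes of 0.28 to 0.38 and adjusted p of 0.0514 to 0.115. Both genes nested in mam were listed at 0 counts in every library.

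**Figure D4:**
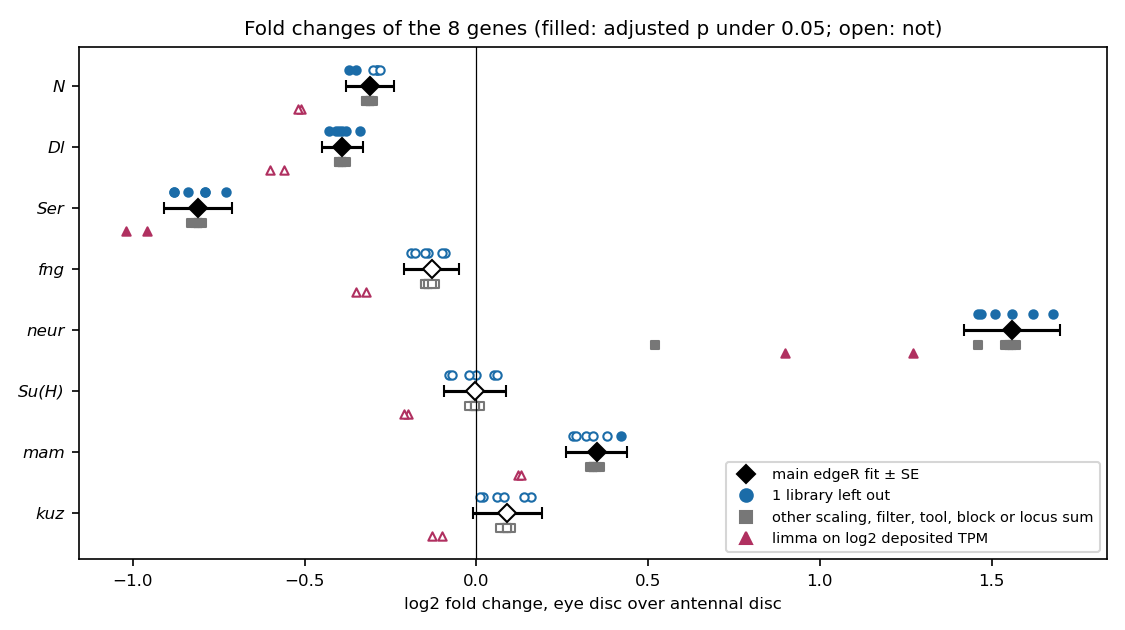
Log2 fold change, eye disc over antennal disc, of the 8 genes in the edgeR fit of all libraries (diamonds, ± SE), with 1 library left out (circles), under other scalings, filters, tools, a replicate block or locus sums (squares) and with limma on deposited TPM (triangles). Filled symbols have an adjusted p under 0.05: those of Ser and neur are filled throughout, those of Dl except with TPM, those of N in 4 of the 6 fits with 1 library left out, and those of mam in 1 of these 6.

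Levels of different genes were compared per kb of the longest annotated transcript, in CPM per kb. In eye disc fng, at 61.7 ± 4.66, and N, at 60.9 ± 2.49, came first, and their ranges overlapped. kuz (30.8 ± 2.89), mam (30.4 ± 2.86) and Dl (30.1 ± 1.71) followed and overlapped with each other. Ser (18.6 ± 2.22), Su(H) (9.21 to 10.8) and neur (7.67 ± 1.19) came last, each below the one before without overlap. In antennal disc N, at 75.4 ± 4.86, came before fng, at 67.7 ± 3.96, again with overlap. Dl (39.4 ± 0.920) was above Ser (32.7 ± 2.36) without overlap, Ser overlapped with kuz (29.1 ± 2.66), and mam (23.9 ± 1.54), Su(H) (10.1 ± 0.865) and neur (2.61 ± 0.274) were each apart from the gene above. On this scale N was above 86.8% of tested genes in eye disc and 89.2% in antennal disc, and neur was above 32.1% and 23.6%. With the antisense counts added, neur would be at 21.2 and 7.68 CPM per kb. The listed length of all 8 genes equals the gene span, so these levels may include intronic reads. The deposited TPM, divided by the span, gave another order with N first and neur last in both tissues. Several places turned with the length used. In eye disc Dl came before kuz and mam per kb of all exons, and by TPM Dl and Ser both did. By TPM fng had rank 4 in eye disc and 5 in antennal disc, and Su(H) had rank 2 and 4. Of the span of fng 8.29% is exonic, and of that of Su(H) 76.7%. The high place of fng and the low place of Su(H) per kb of transcript thus depend on the length used.

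The 8 genes varied about as much between replicates as other genes. Their median coefficient of variation was 8.73% in eye disc and 6.83% in antennal disc, and that of all tested genes was 9.82% and 7.73%. neur was the most variable, at 15.6% and 10.5%, and Dl in antennal disc the least, at 2.34%.

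The profile of each gene over the 6 libraries was compared with those of all tested genes, as the Euclidean distance between log2 CPM centred on the mean of the gene. Among the 8 genes N and Dl were closest (0.192), followed by N and fng (0.32) and by mam and kuz (0.337), and Ser and neur were farthest apart (2.92). Other tested genes were nearer to each member than any of the 8. These genes form a far larger pool, so a nearer gene among them was likely in any case. The comparison therefore cannot tell whether the 8 genes share a profile. Nearest to N were Wnt5 (0.0648), a Wnt ligand, and l(2)gl (0.0767), a polarity gene. Nearest to Dl were Mitofilin (0.0343) and CG43163 (0.0496), and to Ser asRNA:CR45714 (0.110), which lies wholly inside another gene, and MFS3 (0.154). CG13875 (0.209) was nearest to neur, followed by asRNA:CR31429 (0.269). Urm1 (0.0406) and CG9662 (0.0663) were nearest to fng, CG5447 (0.0588) and sca (0.0698) to kuz, CG3655 (0.0501) and Fs (0.0770) to mam, and Zmynd8 (0.0581) and Su(z)12 (0.0703) to Su(H). sca, a secreted protein gene that acts with Notch in R8 spacing, was at 141 ± 12.2 against 136 ± 11.1 CPM.

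Another 65 genes of the pathway, in 9 lists by role, set the 8 genes in context. Of these 64 matched an identifier and 63 were tested. Eye disc was higher for 13, antennal disc for 6, and 44 were not called, with a median log2 fold change of -0.01. That is 13 of 63 against a background of 14.6% and 6 of 63 against 11.7%. The lists too were chosen with earlier results of these data known. Their counts here and below therefore do not test the lists against the background.

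Genes that act on the ligand beside neur did not differ detectably. Of 6 genes of ligand ubiquitination and endocytosis (mib1, mib2, lqf, aux, shi and Chc), 0 were called by the edgeR quasi-likelihood test, 0 had an unadjusted p under 0.05 and 0 were called by DESeq2. Their median log2 fold change was 0.02, and 26.4% of all tested genes were called by edgeR. Inhibitors of neur of the Bearded family were mostly higher in eye disc, with 5 of 7 tested called there and 0 in antennal disc (median 0.79). Of all tested genes, 14.6% were called toward eye disc and 11.7% toward antennal disc. Brd was at 149 ± 22.7 against 44.4 ± 0.884 CPM, Tom at 339 ± 61.6 against 168 ± 28.2 CPM, E(spl)m2-BFM at 152 ± 42.5 against 79.7 ± 7.76 CPM and E(spl)m4-BFM at 183 to 210 against 114 to 117 CPM. The call of E(spl)m2-BFM was lost where antennal disc replicate 2 or 3 was left out, at adjusted p of 0.078 and 0.0768. The count of the list was 3 without antennal disc replicate 2 and 3 without antennal disc replicate 3.

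Proteases of the receptor held the largest difference of the pathway. Eye disc was higher for 2 of 8 genes and antennal disc for 1 (median log2 fold change -0.07). These compare with 14.6% and 11.7% of all tested genes. Tace, the homologue of the mammalian metalloprotease ADAM17, was at 33.4, 26.0 and 42.7 CPM in eye disc and at 2.04, 1.60 and 1.46 CPM in antennal disc. It was low in all antennal disc libraries and overlaps no other indexed gene, with a log2 fold change of 4.32 ± 0.24 (SE, edgeR quasi-likelihood test, adjusted p = 0.000105). Its call held in all 6 fits with 1 library left out, at 4.11 to 4.48. kul, a metalloprotease related to kuz, was lower in eye disc (193 ± 11.2 against 249 ± 12.3 CPM, log2 fold change -0.37, adjusted p = 0.00885). Psn, the catalytic subunit of gamma-secretase, was higher there (159 ± 4.64 against 133 ± 5.01 CPM, log2 fold change 0.25, adjusted p = 0.0149), but not without antennal disc replicate 2 (0.067) or 3 (0.0576). With the replicate number as a block eye disc was higher for 2 genes and antennal disc for 3, nct (adjusted p = 0.0306) and Fur2 (adjusted p = 0.0406) joining kul.

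Among 8 genes of receptor glycosylation, eye disc was higher for 1 and antennal disc for 2 (median log2 fold change -0.14). The shares of all tested genes in these directions were 14.6% and 11.7%. O-fut1, which adds the fucose that fng extends, was at 248 to 285 against 210 to 220 CPM (log2 fold change 0.28, adjusted p = 0.0254 in the edgeR test). Gmd and Gmer, enzymes that make GDP-fucose, were lower in eye disc, at 57.0 ± 1.32 against 64.9 ± 1.36 CPM and at 17.9 ± 0.0566 against 23.7 ± 1.95 CPM (log2 fold change -0.19 and -0.40, adjusted p = 0.042 and 0.0147). These calls rested on few libraries. O-fut1 was lost without antennal disc replicate 1, 2 or 3 (adjusted p 0.0863, 0.0807 and 0.0881), and Gmer without antennal disc replicate 2 or 3 (0.0517 and 0.0513). Gmd was lost in all 6 fits that left out 1 library (highest adjusted p = 0.131) and with the replicate block (0.0545). The list held 1 call without antennal disc replicate 1 and 0 without replicate 2 or replicate 3 of that tissue.

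Among 9 genes of receptor trafficking and antagonism, eye disc was higher for 0 and antennal disc for 2 (edgeR quasi-likelihood test). Across all tested genes these shares were 14.6% and 11.7%. In the list 3 genes had an unadjusted p under 0.05, and DESeq2 gave 0 and 2. dx, a ubiquitin ligase that binds the receptor, was at 118 ± 3.05 against 145 ± 5.48 CPM (log2 fold change -0.30, adjusted p = 0.00772). krz, an arrestin that works with dx, was at 72.4 ± 4.98 against 87.0 ± 4.31 CPM (log2 fold change -0.26, adjusted p = 0.0362), a call that held in 1 of the 6 fits with 1 library left out, the fit without eye disc replicate 1 (highest adjusted p = 0.1). The count of the list was thus 1 without eye disc replicate 2, eye disc replicate 3 or any single antennal disc replicate. With the replicate block lgd was also called, toward eye disc (adjusted p = 0.035), so that eye disc was higher for 1 gene. The antagonist numb was at 228 ± 11.6 and 253 ± 18.1 CPM and was not called.

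Of 8 nuclear cofactors, 0 were called by the edgeR quasi-likelihood test, where 26.4% of all tested genes were. In this list 2 genes had an unadjusted p under 0.05 and DESeq2 called 1, in antennal disc (median log2 fold change -0.14). With the replicate block 2 were higher in antennal disc, gro (adjusted p = 0.0228) and CtBP (adjusted p = 0.0454), both corepressors. Of 7 membrane and secreted cofactors, 1 was called, uif, a large transmembrane protein gene, at 550 ± 46.0 against 692 ± 50.6 CPM (log2 fold change -0.33, adjusted p = 0.0335). That call was lost in 5 of the 6 fits with 1 library left out, all but the one without eye disc replicate 2 (highest adjusted p = 0.11), and the list then held 0 calls without eye disc replicate 1, eye disc replicate 3 or any single antennal disc replicate. wry, named here after its values were seen, was at 1.72, 0.383 and 16.5 CPM in eye disc and at 0.645, 0.669 and 0.460 CPM in antennal disc, so that its log2 fold change of 3.38, not called (edgeR quasi-likelihood test, adjusted p = 0.118), was 0.84 without eye disc replicate 3. It was called without eye disc replicate 2 (0.0349) and by DESeq2 with all libraries (0.0105).

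**Figure D5:**
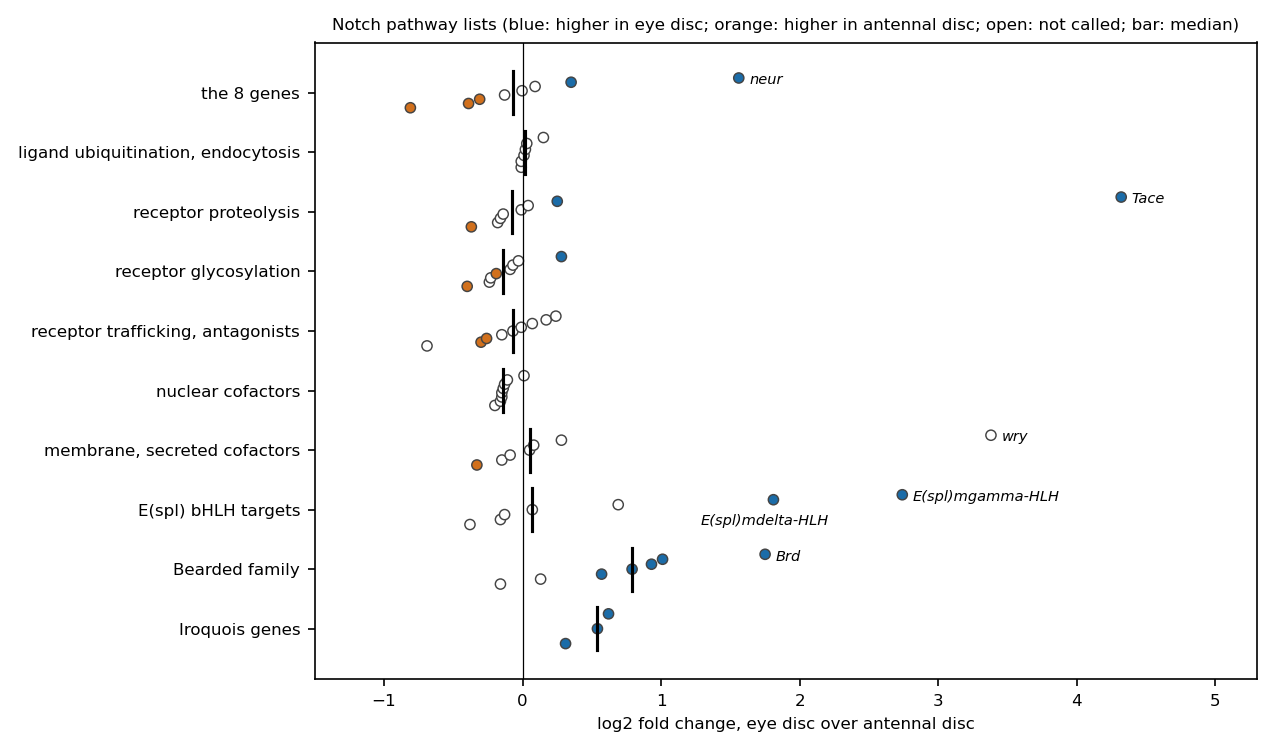
Log2 fold change, eye disc over antennal disc, of each tested gene of the 8 genes and of the 9 other lists, with a bar at the median of each list. Blue marks genes called higher in eye disc, orange marks those called toward antennal disc, and open points were not called. Tace, at 4.32, lies farthest from 0, and all genes of ligand ubiquitination and endocytosis lie near 0.

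Targets of the pathway were uneven. Of the 7 E(spl) genes for basic helix-loop-helix repressors, eye disc was higher for 2 and antennal disc for 0 (edgeR quasi-likelihood test). The background over all tested genes was 14.6% and 11.7%. In the list 4 genes had an unadjusted p under 0.05, and DESeq2 gave 3 and 1. E(spl)mgamma-HLH was at 171, 118 and 159 CPM in the eye disc replicates and at 24.9, 19.4 and 22.9 CPM in the antennal disc replicates. E(spl)mdelta-HLH was at 119, 88.2 and 110 CPM and at 28.6, 30.7 and 31.3 CPM. All 7 genes of the list, called or not, were lowest among eye disc libraries in replicate 2, as were 38.1% of all tested genes. The part of the neuronal and glial markers in the difference of the 2 called genes was not tested. E(spl)mgamma-HLH had a log2 fold change of 2.74 ± 0.17 (adjusted p = 0.000182) and E(spl)mdelta-HLH of 1.81 ± 0.12 (adjusted p = 0.000175), both called in all 6 fits with 1 library left out. The other 5, which lie in the same gene complex, ranged from -0.38 to 0.69, and without eye disc replicate 1 the list held 4 calls, 3 in eye disc and 1 in antennal disc. With the replicate block E(spl)m3-HLH was called as well (adjusted p = 0.0456). The 3 Iroquois homeobox genes mark the dorsal eye and confine fng to the ventral side. All 3 were higher in eye disc, as were 14.6% of all tested genes. mirr was at 110 ± 7.35 against 71.2 ± 4.33 CPM, caup at 51.5 ± 2.80 against 35.3 ± 2.30 CPM and ara at 34.5 ± 2.01 against 27.8 ± 2.46 CPM. ara was called without eye disc replicate 1 but not without any other single library (highest adjusted p = 0.135) nor with the replicate block (0.0572), RLE size factors (0.0505), upper-quartile scaling (0.05) or no filter (0.0626).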

How the data were processed

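Polyadenylated RNA of 3 eye disc and 3 antennal disc libraries was compared, grouped by sample title. The authors deposited an estimated count and a TPM per gene, in columns named as kallisto names them. The submitters' processing notes list FastQC, kallisto, bedtools and the dm6 build. Tool versions, the annotation and the strand setting are not given in the sources used. The gene length in the tables equals the gene span, introns included, for 99.3% of genes with more than 1 exon and for all 8 members, and 47.6% of indexed genes overlap another. Symbols and coordinates came from an Ensembl annotation of dm6 coordinates. Sequences were not used here, and the deposited lists of genes in genomic regions, which hold 0 of the 8 genes, were not used either.

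Estimated counts were rounded, filtered with filterByExpr and scaled by TMM. The tissues were compared with edgeR 4.0.16 in R 4.3.3 (quasi-likelihood, robust, no covariates). P-values were adjusted by Benjamini-Hochberg over 9901 genes, and under 0.05 was a call. SE is the absolute log2 fold change divided by the square root of F. The 95% intervals use the total degrees of freedom of the test, the residual and prior ones together. Ratios within libraries were tested by exact permutation with scipy 1.17.1. DESeq2 1.42.0, limma 3.58.1 on log2(TPM + 1) and log2(TPM + 0.1), other scalings and filters, a replicate block, locus sums and fits without 1 library were alternatives. Steps were tested on simulated counts. Replicate pairs of 1 tissue differed beyond sampling noise. Chi-square per degree of freedom was 335 and 296 for the pairs with eye disc replicate 2 and 15.4 to 49.5 for the others.

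Samples of equal replicate number deviated together from their tissue means (correlation across genes 0.415, 0.308 and 0.242 for numbers 1, 2 and 3), and this check of the data, not the labels, is the source of the pairing. Members and lists were chosen with earlier results of these data known. Named were all 8 members, up to 4 called genes per list with the largest absolute log2 fold change, mib1 and H, the 2 nearest profiles per member and genes overlapping a member. Others named were chosen after their values were seen.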

Additional observations from a re-analysis of the deposited data

How the results depend on the processing

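N, Dl, Ser, fng, neur and mam kept their direction in all fits, and Ser and neur their call. Limma on TPM, with pseudocounts of 1 and 0.1, called 1202 and 1248 of all genes (2610 by edgeR) and 2 of the 8 genes in both cases. It gave log2 fold changes of -0.51 and -0.52 for N, -0.56 and -0.60 for Dl and 0.12 and 0.13 for mam, none called, and -0.10 and -0.13 for kuz, a reversed sign. TPM moved the median of all genes by -0.19 and -0.21, and relative to it kuz was at 0.09 and 0.08. Eye disc replicate 2 was the lowest eye disc library in TPM for 8 of the 8 genes and in CPM for 4. With both pseudocounts limma called 1 gene of proteolysis, 2 of the Bearded family and 0 of glycosylation, trafficking, membrane cofactors and Iroquois genes.

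Samples of equal number were paired by the data, and the replicate block changed no call of the 8 genes (mam 0.34). It moved the calls of proteolysis from 3 to 5 and of nuclear cofactors from 0 to 2, added lgd and E(spl)m3-HLH and took away Gmd and ara. Paired by number, a test added after the data were seen, the 3 ratios had p = 0.25 each (exact sign-flip permutation), the smallest 3 pairs allow. RLE scaling, upper-quartile scaling and no filter took ara from the Iroquois calls (2 of 3 left), and a filter of 1 CPM took Gmd (0.0501). DESeq2 called 1 nuclear cofactor, 3 membrane cofactors and 4 E(spl) genes, and upper-quartile scaling 2 membrane cofactors. Su(H) was at 0.01 with a filter of 1 CPM. The level order kept 1 of 8 ranks in eye disc and 3 in antennal disc with TPM, and 5 in eye disc per kb of all exons.

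Leaving out 1 library gave 1467 to 2514 calls of all genes (1515 without antennal disc replicate 2 and 1467 without replicate 3) and 3 to 5 of the 8 genes. N ranged from -0.37 to -0.28, mam from 0.28 to 0.42 and Su(H) from -0.08 to 0.06, with a sign above 0 without eye disc replicate 1 (0.05), eye disc replicate 2 (0.00022) and antennal disc replicate 3 (0.06). Calls ranged from 0 to 4 in glycosylation, 1 to 2 in trafficking, 0 to 2 in membrane cofactors, 2 to 4 in E(spl) genes and 3 to 5 in the Bearded family. The causes of these changes were not tested.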
